A study of Bos taurus and Bos indicus with 3 samples.

Results

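Solute carriers are membrane proteins that move nutrients, ions, metals, vitamins and metabolites across the cell surface and across the membranes of mitochondria, lysosomes, the Golgi and the endoplasmic reticulum. Most do not use ATP themselves but are driven by the gradient of their own cargo or by a coupled flow of sodium, protons or another ion. The genes are numbered by family (SLC, then the family, then A or another letter, then the member), and members of a family usually resemble each other in sequence and cargo. In white blood cells they supply amino acids and citrate, set zinc, iron and calcium levels, keep cell volume and deliver nucleotide sugars for glycosylation.

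The members described here were the gene models whose single name began with SLC and a number, or was a bovine protein entry name of the corresponding short form, with at least 10 FPKM in any library. FPKM counts fragments for each kilobase of a gene's exons, here scaled by the upper quartile of each library, so levels can be compared between genes of different length. The glucose transporters SLC2A1 and SLC2A3 and the red cell anion exchanger SLC4A1 were left out by the rule. The table held 25968 gene models, of which 14069 reached 10 FPKM in any library, and 148 carried a name that fits the rule. Of those 148, 67 reached 10 FPKM and are the members, 7 lay above 0 and under 10 FPKM, and 74 were listed at 0 in all 3 libraries. By name, 49 members carried a gene symbol and 18 an entry name.

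Each library held RNA of white blood cells from pooled cow blood, 1 library per breed, with no treatment named. Holstein (40 cows) and Jersey (7 cows) are taurine dairy breeds (Bos taurus) sampled at separate Wisconsin farms, and Cholistani (45 cows) is an indicine breed (Bos indicus) sampled in Pakistan, whose RNA was shipped in a dry storage matrix. Ages were not given in the sources used here, and breed, farm and RNA transport cannot be told apart. The comparisons ask how far levels differ between the indicine breed and each taurine breed, and between the taurine breeds.

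With 1 library per breed there is no replicate spread, so no test, error or p-value could be computed. A difference was counted when it was at least 2-fold in FPKM + 1, a scale that understates differences of low genes. The fragments behind each gene were not given, so the precision of a single value is unknown, and for a gene listed at 0 no ratio is given. Where 3 levels follow each other they are those of Holstein, Jersey and Cholistani, in that order, and a pair of log2 ratios is Cholistani over Holstein, then Cholistani over Jersey. The comparisons of Cholistani with Holstein and with Jersey share the Cholistani library. In pooled blood, fewer cells of a type and less RNA per cell cannot be told apart.

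The libraries held the markers of white blood cells, at unequal levels. Summed over the markers found, T cell genes (5 of 9) reached 4832 FPKM for Holstein, 4792 for Jersey and 9909 for Cholistani, and B cell genes (5 of 8) 8523, 10819 and 18744. Neutrophil genes (5 of 8) summed to 1607, 1335 and 5270 FPKM, cytotoxic cell genes (3 of 6) to 1018, 773 and 3417, and monocyte genes (4 of 7) to 1166, 752 and 1312. Platelet genes (5 of 8) summed to 1140, 1175 and 919 FPKM, and eosinophil genes (2 of 5) to 7.60, 46.2 and 23.1. Red cell genes (5 of 8) summed to 549, 385 and 102, with AHSP and CA1 listed at 0 in every library. The FPKM of the whole table came to 5949770 for Holstein, 6288100 for Jersey and 9518430 for Cholistani. The part of these differences in the values below was not tested, except that folds were also computed after setting the 3 sums equal.

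Not every model with a fitting name was a solute carrier. S61A1_BOVIN and S61A2_BOVIN are SEC61A1 and SEC61A2, the channel subunits through which proteins enter the endoplasmic reticulum, and S5A1_BOVIN is SRD5A1, a steroid reductase. SLC2A4RG is a transcription factor named for the glucose transporter gene it binds in human cells. SEC61A1 held the highest level among the 67, with 604.9 FPKM for Holstein, 556.1 for Jersey and 859.9 for Cholistani. SLC2A4RG stood at 41.0, 45.8 and 95.2 FPKM (log2 ratios of 1.20 to Holstein and 1.04 to Jersey), while SEC61A1, SEC61A2 and SRD5A1 lay within 2-fold in every comparison. The remaining 63 members were solute carriers of 29 families. In the bovine RefSeq annotation, whose build differs from that of the files, 61 of the 63 symbols were listed and 59 stood on the same chromosome. SLC41A3 and SLC35F2 stood on another chromosome there, and SLC2A14 and SLC35E2 were not listed as current symbols, so the identity of these 4 models is less sure.

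Most solute carriers were expressed at moderate levels. The median solute carrier stood at 64.0 FPKM for Holstein, 62.2 for Jersey and 65.2 for Cholistani (75.2 for Cholistani over the 67 members). These lay below the medians of 83.3, 85.9 and 88.3 over all models that reached 10 FPKM. Of the 63 solute carriers, 9 reached 300 FPKM in a library, 20 peaked from 100 to under 300, 20 from 30 to under 100 and 14 under 30. The 63 summed to 7139 FPKM for Holstein, 7014 for Jersey and 7111 for Cholistani, so their sum was nearly level while the sum over all models was not. As a share of all FPKM this was 0.12%, 0.112% and 0.0747%.

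**Figure D1:**
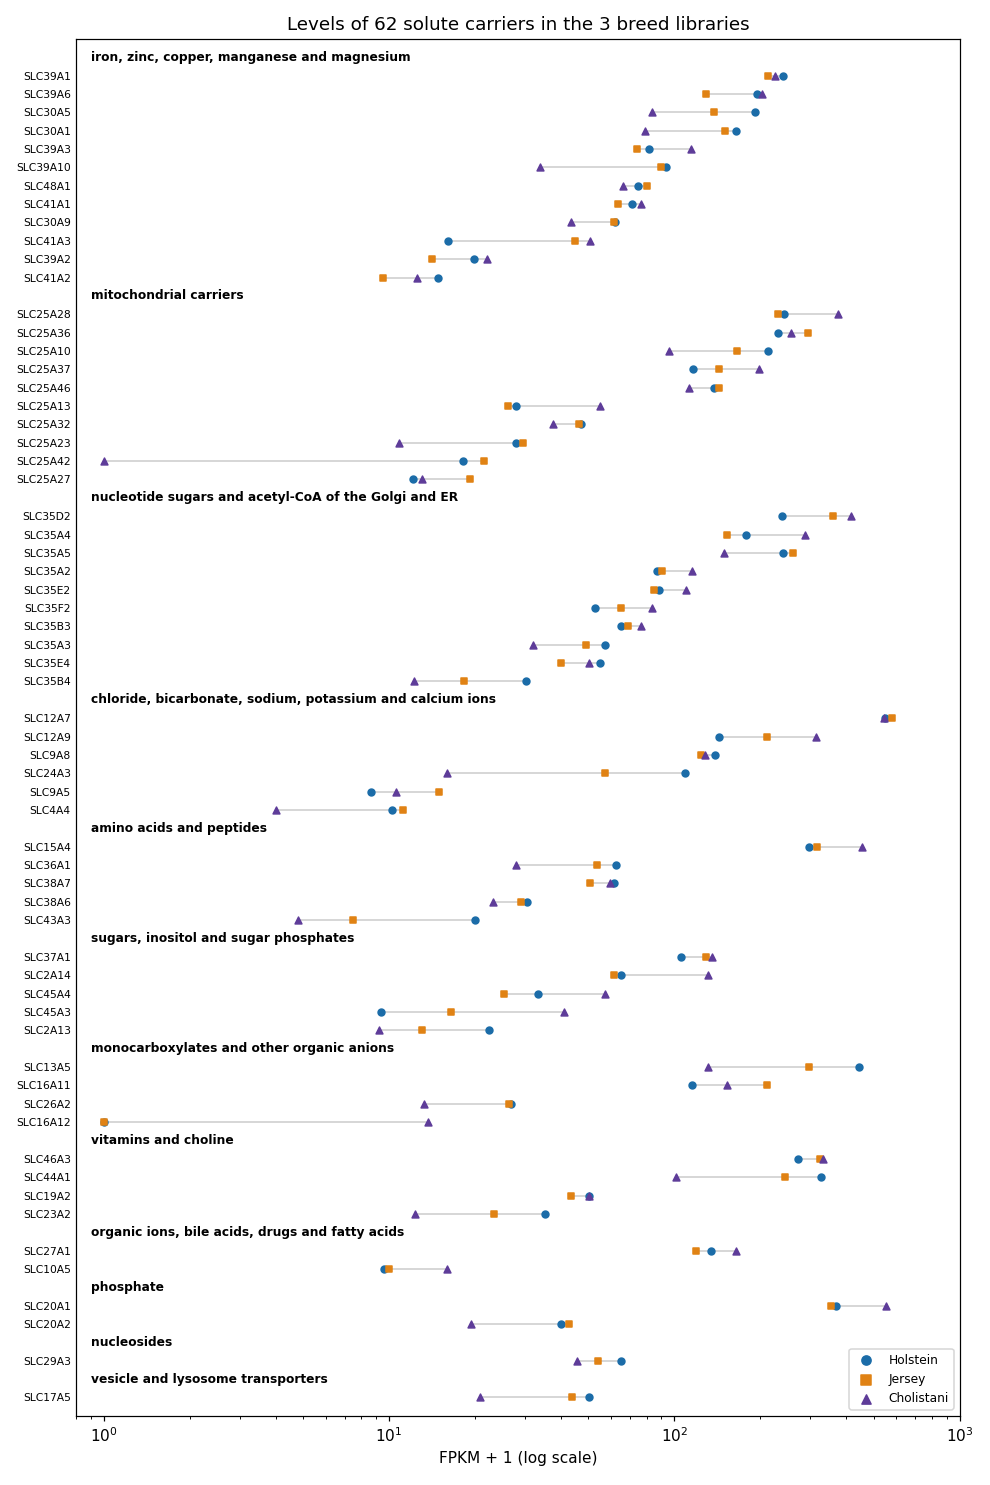
The level of each of 62 of the solute carriers in the Holstein (circle), Jersey (square) and Cholistani (triangle) library, as FPKM + 1 on a log scale, by group of cargo. Lines join the 3 values of a gene, each from 1 library with no replicate; SLC12A7 at the top of the ion group differs little (545.9, 579.7 and 541.1 FPKM), while SLC24A3 ranges from 15.0 to 108.0 FPKM.

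The rule kept most models of some groups and almost none of others. Among metal transporters 12 of 15 named models were members, among mitochondrial carriers 10 of 13, and among the nucleotide sugar transporters of the Golgi 10 of 14. In contrast, only 2 of 20 models for organic ions, bile acids, drugs and fatty acids were members and 16 were listed at 0 in every library. The SLC22 organic ion transporters, known from liver and kidney, had 14 models, none of them a member and 13 listed at 0. The SLC6 neurotransmitter and amino acid transporters had 6 models and no member, and the 3 models of the SLC7 amino acid exchangers were listed at 0. Of the SLC26 anion exchangers, 6 of 7 models were listed at 0. These counts cover only models that the rule named. Outside it, a model merged with SLC7A6 stood at 213.7, 234.4 and 219.6 FPKM. A model merged with SLC22A4 stood at 12.9, 12.5 and 21.2 FPKM, and S2611_BOVIN, of family SLC26, at 34.3, 36.0 and 45.0.

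Between Cholistani and Holstein more members were lower than higher. Of the 67, 19 (28.4%) were at least 2-fold lower in Cholistani, where 12.3% of all models with at least 10 FPKM were, and 6 (8.96%) were higher, where 19.2% of all models were. The 19 were all solute carriers, and 1 of the 6 higher members was SLC2A4RG. Against Jersey, 10 members (14.9%) were lower, beside 12.6% of all models, and 6 (8.96%) were higher, beside 16.8%. Between Jersey and Holstein, 1 member (1.49%) was higher in Jersey, beside 6.82% of all models, and 1 was lower, beside 3.88%. The median log2 ratio over the 67 was −0.05 for Cholistani over Holstein, 0.04 for Cholistani over Jersey (−0.10 over the 63 solute carriers) and −0.06 for Jersey over Holstein, beside 0.18, 0.15 and 0 over all models. Members within 2-fold in every comparison numbered 40, and the same share of all models is not given here.

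These splits depend on the scale. With the 3 library sums set equal, the median log2 ratio of all models with at least 10 FPKM became −0.43 for Cholistani over Holstein and −0.41 for Cholistani over Jersey, and 24 members were lower and 3 higher than in Holstein (26.6% and 10.6% of all models), and 25 lower and 1 higher than in Jersey (25.1% and 9.62%). With the ratios centred on the median of all models, 20 members were lower and 4 higher than in Holstein (14.7% and 15.8%), and 14 lower and 3 higher than in Jersey (14.8% and 13.8%). Both scales can only lower a ratio of Cholistani over a taurine library, or leave it unchanged. All 19 members lower than in Holstein and all 10 lower than in Jersey therefore had to stay at least 2-fold lower. Only calls of higher members could be lost. Of the 6 higher than in Holstein, 3 stayed at least 2-fold higher with equal sums (SLC16A12, SLC41A3 and SLC45A3), and 1 of the 6 higher than in Jersey did (SLC16A12). SLC16A12 is a member only because its Cholistani level passed the minimum of 10 FPKM, so its place among the higher members follows from that minimum. On the lower side, SLC43A3, SLC4A4, SLC25A23, SLC25A42 and SLC2A13 lay under 10 FPKM in Cholistani. They are members only through taurine levels, so the minimum adds to the lower counts as well. Of the 32 members above 0 for Cholistani over Holstein, 20 lay below 0 with equal sums, as did 20 of 34 for Cholistani over Jersey.

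**Figure D2:**
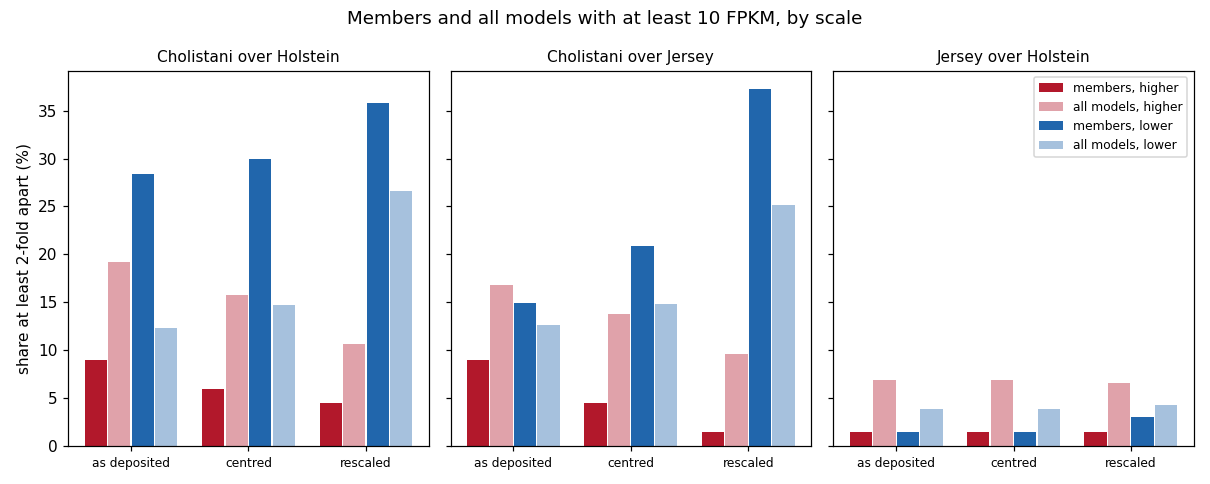
Share of the 67 members (dark bars) and of all 14069 models with at least 10 FPKM (pale bars) that were at least 2-fold higher (red) or lower (blue), in percent, for the 3 comparisons and for FPKM as deposited, ratios centred on the median, and sums set equal. For Cholistani over Holstein the share of lower members went from 28.4% to 29.9% and 35.8%, and that of all models from 12.3% to 14.7% and 26.6%.

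In 10 members the Cholistani level was under both taurine levels by 2-fold or more, among them SLC13A5, SLC17A5, SLC20A2, SLC24A3, SLC25A23, SLC25A42, SLC39A10, SLC44A1 and SLC4A4. It was above both in 4 members, SLC16A12, SLC2A14, SLC45A3 and SLC2A4RG. In all 14 the Holstein and Jersey levels lay within 2-fold of each other. Lower than in Holstein alone were 9 members and higher than in Holstein alone 2, and SLC25A13 and SLC45A4 were higher than in Jersey alone. Whether 1 ratio past 2-fold and another short of it differ was not tested. The share of all models with each of these patterns is not given here, so whether the counts are unusual cannot be read from them.

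**Figure D3:**
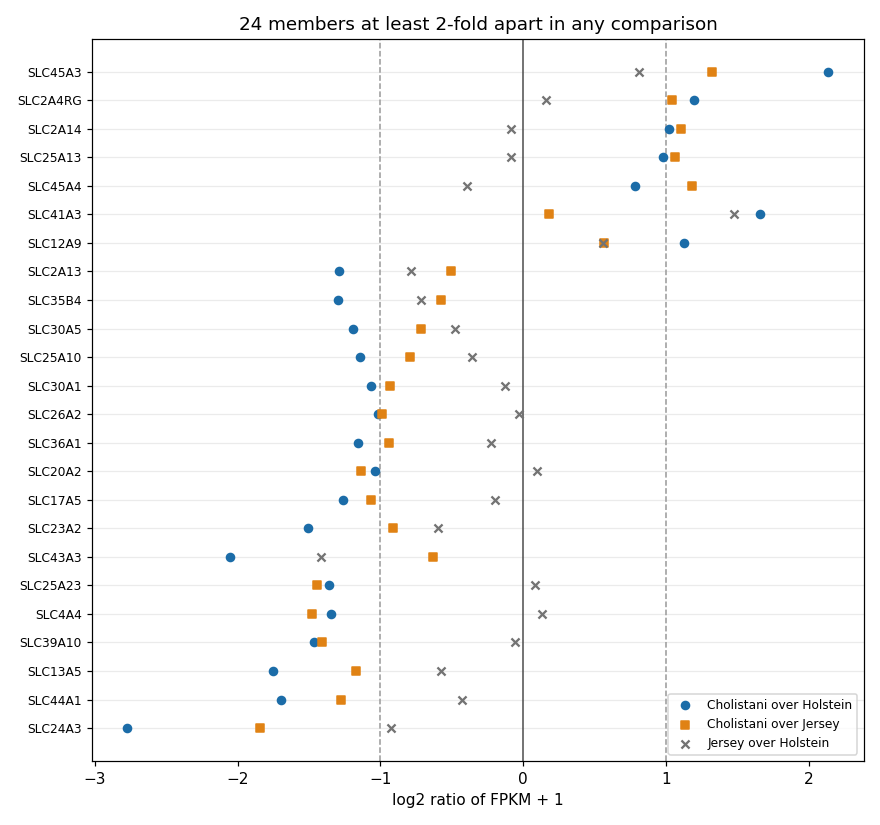
The log2 ratio of FPKM + 1 for Cholistani over Holstein (circle), Cholistani over Jersey (square) and Jersey over Holstein (cross) of 24 of the members above 0 in every library that were at least 2-fold apart in any comparison, ordered by the mean of the Cholistani ratios. Dashed lines mark 2-fold; SLC24A3 lies lowest (−2.77 and −1.85) and SLC45A3 highest (2.14 and 1.32).

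Among transporters of chloride, sodium, potassium and calcium (7 members), 3 stood at least 2-fold lower in the Cholistani library than in either taurine one. Over all models, 12.3% were lower than in Holstein and 12.6% lower than in Jersey. Higher than in Holstein was 1 member of the group, beside 19.2% of all models. SLC24A3 (chromosome 13, 38868227 to 39297645 in btau4.0), which exports calcium in exchange for sodium with the help of potassium, had the largest difference among members above 0 in every library. It stood at 108.0 FPKM for Holstein, 56.4 for Jersey and 15.0 for Cholistani. The log2 ratio was −2.77 to Holstein and −1.85 to Jersey, and Jersey lay 0.93 below Holstein on the same scale (−0.93), so the order was Holstein, Jersey, Cholistani.

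The SLC12 family holds the potassium-chloride cotransporters, which lower cell volume by letting salt out, and its members differed among themselves. SLC12A7 (KCC4, chromosome 20, 75293396 to 75333033) was the most abundant of the 63 solute carriers in both taurine libraries, with 545.9 FPKM for Holstein, 579.7 for Jersey and 541.1 for Cholistani. Its 3 levels were nearly the same. SLC12A9, a family member known to interact with the cotransporters and with no settled cargo, was highest in Cholistani, with 142.7, 210.3 and 311.9 FPKM (1.12 to Holstein, 0.57 to Jersey). With equal sums these became 0.45 and −0.03, so neither its 2-fold difference nor its being highest in Cholistani held. The ratio of SLC12A7 to SLC12A9 within a library, which no scaling of the library changes, was 3.83 for Holstein, 2.76 for Jersey and 1.73 for Cholistani.

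The sodium-proton exchanger SLC9A8, which works in the Golgi, was level at 138.2, 122.5 and 126.9 FPKM. Its relative SLC9A5 stood at 7.62, 13.97 and 9.61 FPKM. SLC4A4, a sodium bicarbonate cotransporter, lay just inside the minimum at 9.22, 10.2 and 3.01 FPKM and was counted as lower in Cholistani, a difference between low values.

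Metal transporters were the largest group, with 12 members. Zinc enters the cytosol through the SLC39 (ZIP) proteins and leaves it, to the outside or into vesicles, through the SLC30 (ZnT) proteins. All 3 SLC30 members were below both taurine libraries, with median log2 ratios of −1.06 to Holstein and −0.72 to Jersey. Of these, 2 were at least 2-fold lower than in Holstein, beside 12.3% of all models. SLC30A5, which loads zinc into the Golgi, stood at 190.1 FPKM for Holstein, 136.3 for Jersey and 82.6 for Cholistani (−1.19 and −0.72). SLC30A1 (chromosome 16, 69755588 to 69758677), the zinc exporter of the cell surface, stood at 164.0, 149.7 and 77.9 FPKM (−1.06 and −0.93). For both, Jersey lay between Holstein and Cholistani. SLC30A9 stood at 60.7, 60.4 and 42.5 FPKM and did not pass 2-fold.

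The 5 zinc importers did not share a direction. SLC39A1 was level at 240.3, 211.3 and 224.3 FPKM, and SLC39A6 was lowest in Jersey, with 193.9, 128.4 and 201.1 FPKM. SLC39A3 was higher in Cholistani at 80.4, 73.0 and 113.5 FPKM, short of 2-fold, and with equal sums its log2 ratio was −0.18 to Holstein and 0.04 to Jersey. SLC39A10 (chromosome 2, 88273332 to 88343692), which B cells of mice need for survival, stood at 92.4, 88.9 and 32.8 FPKM. It was the importer that passed 2-fold, with log2 ratios of −1.47 and −1.41. Those B cell markers that are named here did not share a direction: CD79A, which made up most of their sum, stood at 5281, 6190 and 14273 FPKM, BANK1 at 982, 1350 and 1523, CD22 at 998, 1416 and 1058, and PAX5 at 296, 381 and 145. The part of B cell numbers in the SLC39A10 levels was not tested. SLC39A2 was low, with 18.9, 13.1 and 21.1 FPKM.

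Of the magnesium transporters, SLC41A1 was level at 69.8, 62.2 and 75.6 FPKM. SLC41A3, whose span overlaps the expressed gene ZXDC, was the member that was higher in Jersey than in Holstein, with 15.1 FPKM for Holstein, 43.7 for Jersey and 49.7 for Cholistani. Its log2 ratio was 1.66 for Cholistani over Holstein and 1.48 for Jersey over Holstein, and the Cholistani and Jersey levels were close (0.18). SLC48A1, which carries heme out of lysosomes, was level at 73.7, 79.3 and 65.2 FPKM.

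The 10 mitochondrial carriers of the SLC25 family cross the inner mitochondrial membrane, apart from SLC25A46, which sits in the outer one. Compared with Holstein, 3 were at least 2-fold lower in Cholistani (12.3% of all models were) and none higher (19.2%). Against Jersey, 2 were lower (12.6%) and 1 higher (16.8%). With equal sums 3 were lower than in Holstein, 4 lower than in Jersey and none higher than in either. The iron importers of mitochondria were both higher in Cholistani, short of 2-fold. SLC25A28 (mitoferrin 2, chromosome 26, 18677281 to 18687710) stood at 240.8 FPKM for Holstein, 230.5 for Jersey and 373.0 for Cholistani (0.63 and 0.69). SLC25A37 (mitoferrin 1), which supplies iron for heme in red cell precursors, stood at 115.3, 142.2 and 197.0 FPKM (0.77 and 0.47). With equal sums these became −0.05 and 0.10 for SLC25A28 and 0.09 and −0.13 for SLC25A37, so their direction rests on the scale. ALAS2, the heme synthesis enzyme of red cell precursors, was lowest in Cholistani, at 535.6, 363.1 and 32.3 FPKM. It made up most of the red cell sum in the taurine libraries. HBA, a globin gene of the same list, was highest in Cholistani, where it made up most of that sum. It was listed at 0 in Holstein and at 11.5 FPKM in Jersey and 69.3 in Cholistani. EPB42 was listed at 0 in Cholistani.

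SLC25A10 (chromosome 19, 52598203 to 52604030), which exchanges malate and other dicarboxylates for phosphate, was lower in Cholistani, with 211.8, 165.3 and 95.1 FPKM (−1.15 and −0.79). The pyrimidine nucleotide carrier SLC25A36 was highest in Jersey, with 229.4, 294.1 and 255.8 FPKM. SLC25A13 (citrin), the aspartate-glutamate exchanger of the malate-aspartate shuttle, was at 26.8, 25.2 and 53.8 FPKM. This is 0.98 on the log2 scale above Holstein and 1.06 above Jersey, but 0.32 and 0.48 with equal sums. Among the low carriers, SLC25A23, an ATP-magnesium/phosphate carrier, stood at 26.9, 28.5 and 9.85 FPKM, but its span overlaps 11 other models. SLC25A42, the coenzyme A carrier, had 17.1 FPKM in Holstein, had 20.5 in Jersey and was listed at 0 in Cholistani. The folate carrier SLC25A32, the outer membrane protein SLC25A46 and the uncoupling protein SLC25A27 were within 2-fold in every comparison.

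Nucleotide sugar transporters, 10 members of family SLC35, carry activated sugars into the Golgi and the endoplasmic reticulum. As deposited, 1 of 10 was at least 2-fold lower than in Holstein, beside 12.3% of all models, and none was higher. None of the 10 passed 2-fold against Jersey, and the median log2 ratio was 0.27 to each taurine library. With equal sums, 3 were lower than in Holstein and 3 lower than in Jersey, and the medians were −0.40 and −0.32. By highest level, the most abundant of these 10 was SLC35D2 (chromosome 8, 87206474 to 87263844), with 237.7 FPKM for Holstein, 360.0 for Jersey and 415.8 for Cholistani. It was higher in both Jersey (0.60) and Cholistani (0.80) than in Holstein. A model outside the rule, S35D2_BOVIN on chromosome 3, went the other way at 20.4, 13.6 and 10.2 FPKM (−0.93 and −0.38). Another model of the family outside the rule, S35B1_BOVIN, stood at 308.0, 256.2 and 560.5 FPKM (0.86 and 1.13 as deposited). It passed 2-fold against Jersey and exceeded SLC35D2 in Holstein and Cholistani. SLC35A4 stood at 176.9, 151.5 and 287.1 FPKM (0.70 and 0.92), highest in Cholistani. SLC35A5 was lowest there, with 240.2, 258.5 and 147.9 FPKM (−0.70 and −0.80), and its span overlaps the autophagy gene ATG3.

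For SLC35A2, the UDP-galactose transporter, the levels were 85.9, 89.2 and 114.3 FPKM. SLC35A3, the UDP-N-acetylglucosamine transporter, stood at 56.2, 47.9 and 30.8 FPKM. SLC35B4 was the member of the family that passed 2-fold against Holstein, with 29.1, 17.3 and 11.3 FPKM (−1.30 and −0.58). SLC35E4 was lowest in Jersey at 53.8, 39.1 and 49.3 FPKM. SLC35B3, which carries the sulfate donor PAPS, and SLC35E2 and SLC35F2, of less settled cargo, lay within 2-fold throughout.

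In the monocarboxylate and organic anion group, SLC13A5 (chromosome 19, 25281249 to 25310549) was among the most abundant solute carriers of the Holstein library. This sodium-driven importer brings citrate into the cell and is known chiefly from liver and brain. It stood at 441.3 FPKM for Holstein, 295.3 for Jersey and 130.3 for Cholistani, a log2 ratio of −1.75 to Holstein and −1.17 to Jersey. Jersey lay between, 0.58 below Holstein (−0.58). SLC16A11, of the monocarboxylate transporter family, had the largest ratio of Jersey over Holstein among members with at least 50 FPKM, with 114.7, 209.6 and 152.3 FPKM (0.86). Its relative SLC16A12, a creatine transporter in human cells, was listed at 0 in both taurine libraries and at 12.7 FPKM in Cholistani. The sulfate transporter SLC26A2 stood at 25.8, 25.3 and 12.3 FPKM (−1.02 and −0.99), at the edge of the 2-fold limit in both comparisons.

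SLC20A1 and SLC20A2 (PiT1 and PiT2) import phosphate with sodium at the surface of most cells, and their levels differed in opposite directions. SLC20A1 (chromosome 11, 47905096 to 48071096) stood at 366.8 FPKM for Holstein, 353.4 for Jersey and 549.2 for Cholistani, where it was the most abundant of the 63 solute carriers. Its log2 ratios were 0.58 and 0.63 (−0.10 and 0.04 with equal sums). Its span overlaps 4 other expressed models. SLC20A2 (chromosome 27, 39667385 to 39746418) stood at 38.98, 41.8 and 18.4 FPKM, lower by more than 2-fold against both taurine libraries (−1.04 and −1.14). The ratio of SLC20A1 to SLC20A2 was 9.41 for Holstein, 8.45 for Jersey and 29.8 for Cholistani.

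The 5 members for amino acids and peptides had 2 lower than in Holstein, beside 12.3% of all models. None passed 2-fold against Jersey, beside 12.6% lower and 16.8% higher over all models. With equal sums 3 were lower than in Holstein and 2 lower than in Jersey. SLC15A4 (chromosome 17, 51007187 to 51036582) exports histidine and small peptides from lysosomes and is needed in mice for Toll-like receptor signalling from these vesicles. It was the most abundant of the group, with 294.6 FPKM for Holstein, 316.4 for Jersey and 454.9 for Cholistani (0.63 and 0.52, but −0.05 and −0.07 with equal sums). SLC36A1, a proton-coupled amino acid transporter of lysosomes and the cell surface, stood at 61.4, 52.5 and 26.9 FPKM (−1.16 and −0.94). SLC38A7, a lysosomal glutamine and asparagine transporter, was level at 60.4, 49.5 and 58.4 FPKM, and its relative SLC38A6 stood at 29.4, 28.1 and 22.2. SLC43A3, which carries purine bases in human cells though its family is that of amino acid transporters, stood at 18.9, 6.46 and 3.81 FPKM. It was the member at least 2-fold lower in Jersey than in Holstein (−1.42), and its span overlaps the eosinophil gene PRG3, which was at 33.1 FPKM in Jersey and listed at 0 in the other libraries.

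Lysosomal transporters cut across these groups, with 7 members: SLC15A4, SLC17A5, SLC29A3, SLC36A1, SLC38A7, SLC46A3 and SLC48A1. This set was picked by hand and is not 1 of the role groups. Its median log2 ratio was −0.17 to Holstein and −0.25 to Jersey, beside 0.18 and 0.15 over all models. With equal sums these became −0.84 and −0.83, beside −0.43 and −0.41 over all models. SLC46A3, the second most abundant of them, was at 269.7, 322.7 and 331.5 FPKM. SLC17A5 (sialin), which lets sialic acid out of lysosomes, was the one lower than in both, at 49.2, 42.7 and 19.9 FPKM (−1.26 and −1.06). SLC29A3, a nucleoside transporter of lysosomes, stood at 63.9, 52.9 and 44.5 FPKM.

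The 5 members for sugars and inositol had the highest median among the larger groups, 0.78 to Holstein and 1.10 to Jersey (0.12 and 0.51 with equal sums). As deposited, 2 were higher and 1 lower than in Holstein, beside 19.2% and 12.3% of all models. Against Jersey, 3 were higher (16.8%) and none lower (12.6%). With equal sums 1 was higher and 1 lower than in Holstein, and none was higher and 1 lower than in Jersey. SLC37A1, a sugar phosphate exchanger, was the most abundant at 104.9, 127.6 and 134.6 FPKM. SLC2A14, close in sequence to the left-out SLC2A3 in human, stood at 63.9 FPKM for Holstein, 60.2 for Jersey and 130.7 for Cholistani. Its log2 ratios were 1.02 and 1.10, but 0.35 and 0.51 with equal sums, and its span overlaps 2 other expressed models. Whether it shares reads with SLC2A3 was not tested, so its level is uncertain. SLC45A4 stood at 32.3, 24.3 and 56.3 FPKM (0.78 and 1.18, but 0.12 and 0.60 with equal sums). SLC45A3 (chromosome 16, 2425037 to 2431940), known from prostate, was low in the taurine libraries at 8.35 and 15.4 FPKM and at 40.1 FPKM in Cholistani, log2 ratios of 2.14 and 1.32. In the other direction, SLC2A13, which imports inositol with protons, stood at 21.5, 12.0 and 8.18 FPKM.

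Of the 4 vitamin and choline transporters, 2 were lower than in Holstein (12.3% of all models were) and 1 lower than in Jersey (12.6%). SLC44A1 (chromosome 8, 99817901 to 100015576), a choline transporter of the cell surface and mitochondria, stood at 326.9 FPKM for Holstein, 243.0 for Jersey and 99.95 for Cholistani. Its log2 ratios were −1.70 and −1.27, and Jersey lay between. SLC23A2, which imports vitamin C, stood at 34.1, 22.2 and 11.3 FPKM (−1.51 and −0.91), in the same order of breeds. SLC19A2, the thiamine transporter, was level at 49.0, 42.6 and 49.3 FPKM. In the group of organic ions and fatty acids, SLC27A1, which takes up long fatty acids, stood at 133.5, 117.8 and 163.1 FPKM and SLC10A5 at 8.57, 9.03 and 15.0 FPKM.

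Between Jersey and Holstein 65 of 67 members were within 2-fold. Among members with at least 50 FPKM, those lowest in Jersey relative to Holstein were SLC24A3, SLC39A6, SLC13A5, SLC30A5 and SLC35E4, with log2 ratios from −0.93 to −0.45. Those highest were SLC16A11, SLC35D2, SLC12A9, SLC25A36 and SLC25A37, from 0.86 to 0.30. Of these 10, SLC24A3, SLC13A5 and SLC30A5 stood lowest in Cholistani, and SLC35D2, SLC12A9 and SLC25A37 highest there as deposited. With equal sums the latter lay below Jersey, with log2 ratios of −0.39, −0.03 and −0.13.

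Within families the balance of the 2 most abundant members kept by the rule could be compared inside each library, free of any scaling. Models outside the rule can be more abundant: S2539_BOVIN of SLC25 stood above both SLC25A28 and SLC25A36 in every library. Of 12 families with at least 2 members, 11 had a ratio in every library. The ratio of SLC2A14 to SLC2A13 was 2.97 for Holstein, 5.01 for Jersey and 16.0 for Cholistani. That of SLC25A28 to SLC25A36 was 1.05, 0.784 and 1.46, and the pair changed order in Jersey. SLC41A1 to SLC41A3 was set apart in Holstein instead, with 4.63 against 1.42 in Jersey and 1.52 in Cholistani. These ratios were chosen after values of the table were known, and they have no error.

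**Figure D4:**
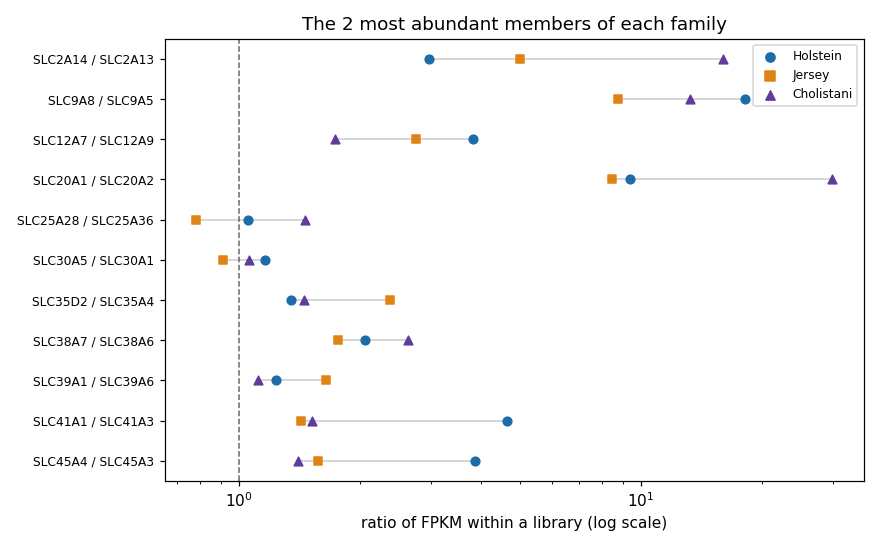
Ratio of FPKM of the 2 most abundant members of a family kept by the rule within the Holstein (circle), Jersey (square) and Cholistani (triangle) library, on a log scale, for 11 families. The dashed line marks equal levels; SLC20A1 over SLC20A2 is 9.41, 8.45 and 29.8, and SLC12A7 over SLC12A9 is 3.83, 2.76 and 1.73.

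Solute carriers depend on other proteins, and genes of those systems were read from lists. Of 24 ion gradient pump genes, 16 reached 10 FPKM, and in Cholistani 1 was 2-fold or more above Holstein (19.2% of all models were), 2 above Jersey (16.8%) and none below either (12.3% and 12.6%). With equal sums none was above and 1 below Holstein, and 1 was above and 1 below Jersey. ATP6V0C, a subunit of the proton pump of lysosomes, stood at 2251 FPKM for Holstein, 2150 for Jersey and 6542 for Cholistani (log2 ratios of 1.54 and 1.61, and 0.86 and 1.01 with equal sums). Of the 21 genes of iron, copper and zinc handling, 9 reached 10 FPKM, with 1 higher than in Holstein, 2 higher than in Jersey and none lower, beside the same shares of all models (with equal sums 1 stood above and 2 below Holstein, and 1 above Jersey). Of the 20 genes of amino acid sensing, 11 did, with ATF4 higher than in both taurine libraries at 2215, 2433 and 5309 FPKM (1.26 and 1.13, but 0.58 and 0.53 with equal sums) and MTOR lower than in Holstein at 65.5, 54.1 and 31.97 (−1.01 and −0.74, and −1.67 and −1.32 with equal sums). Of 8 partner proteins, CD320 was found by name, at 66.3, 86.7 and 162 FPKM.

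Just inside the minimum of 10 FPKM were SLC4A4, SLC16A12 and SLC41A2 (13.9, 8.54 and 11.5 FPKM in Holstein, Jersey and Cholistani). Just outside were SLC6A17 with 6.41, 7.16 and 0 FPKM, SLC22A20 with 0, 0 and 6.42, and SLC39A8 with 5.69, 0 and 0. In all 3 libraries 57 members reached 10 FPKM, 5 did so in 2 libraries and 5 in 1. Low members carry the less certain ratios: with 10 FPKM added to each value instead of 1, 10 of the 19 members lower than in Holstein still passed 2-fold, among them SLC24A3, SLC13A5, SLC44A1, SLC39A10, SLC25A10 and SLC30A5.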

How the data were processed

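White blood cell RNA was measured by mRNA sequencing, 1 library per breed. The authors deposited 1 FPKM value per gene model and breed, made with Cufflinks 0.9.3 from reads placed on btau4.0 by TopHat 1.0.14 (with Bowtie 0.12.7 and Ensembl release 60 junctions). The authors upper-quartile normalized them and corrected them for sequence bias. Strand was not stated, so reads of overlapping genes cannot be told apart. The fragments per gene are not known, which limits precision.

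Folds were log2 ratios of FPKM + 1, counted at 2-fold, over the 67 members and over all 14069 models with at least 10 FPKM. Shares past 2-fold were also counted over the 10616 of these models with a name. 5 models with missing Holstein and Jersey values were left out. Listed starts were taken to count from 0. For markers and pathway genes the most abundant model of a name was taken, by symbol or entry name. Role groups followed the SLC family number. Genes named were the 10 highest and 10 lowest of Cholistani over both taurine libraries and the 5 of Jersey over Holstein in each direction (at least 50 FPKM), the 3 most abundant of each group, and the models next to the minimum; others were chosen after their values were seen. Members and lists were chosen with earlier results of these data known. Alternatives were pseudocounts of 0.1 and 10, equal sums, centred ratios, minimums of 50 and of none, gene symbols only and 1 model per gene. Scripts used Python 3.11.15 with pandas 2.3.3, numpy 2.4.6 and matplotlib 3.10.9 and were tested on simulated data. Some results were left out of the text and figures and are not reported here.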

Additional observations from a re-analysis of the deposited data

How the results depend on the processing

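No test could be run and no replicate left out, because each breed has 1 library. No paired analysis was possible because there are no replicates to pair. With a pseudocount of 10 FPKM, 10 members stood 2-fold or more below Holstein in Cholistani, 2 above Jersey and 6 below it, and none was lower in Jersey than in Holstein (0). With equal library sums, 3 were higher than in Holstein (median log2 ratio −0.72), 1 higher and 25 lower than in Jersey (median −0.56), and 2 lower in Jersey than in Holstein. With centred ratios, the median was −0.23 to Holstein and −0.11 to Jersey, and 3 members were higher than in Jersey. Among the 45 members with at least 50 FPKM, 3 stood above and 9 below Holstein (median 0.11), 5 were lower than in Jersey, and 0 differed between Jersey and Holstein in either direction. With no minimum (74 models), 3 were higher and 2 lower in Jersey than in Holstein. With gene symbols only (49 members), the median was −0.10 to Jersey and 0 were lower in Jersey than in Holstein. Chosen after seeing the data were leaving out the 4 models that are not solute carriers, with a median of −0.10 to Jersey, and the 57 members whose span overlaps no other model, of which 0 were higher and 0 lower in Jersey than in Holstein. The higher pseudocount and the smaller sets lower counts by construction; the cause of the unequal library sums was not tested. Taking 1 model per gene changed nothing, since the 67 members are 67 genes. Of the ratios of named genes, 7 dropped under 2-fold and 10 passed it with equal sums, 5 and 3 with centred ratios, 13 and 0 with the pseudocount of 10, and 0 and 2 with that of 0.1; none that passed 2-fold changed sign.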

Other observations

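Further transporters of the same families stood outside the naming rule. Entry names of another form marked 18 models, of which 15 reached 10 FPKM, and 5 models, all above 10 FPKM, merged a solute carrier with another name. S2533_BOVIN, an entry of the mitochondrial carrier family SLC25, stood at 42.3 FPKM for Holstein, 49.1 for Jersey and 266 for Cholistani, log2 ratios of 2.63 and 2.41. This was a larger difference than in any of the 10 mitochondrial carriers that the rule kept, apart from SLC25A42, which was listed at 0 in Cholistani. S2539_BOVIN, of the same family, was the most abundant of the 18 models at 597, 693 and 1019 FPKM. S38AB_BOVIN, of the amino acid transporter family SLC38, was at 34.8 and 35.4 FPKM in the taurine libraries and listed at 0 in Cholistani. S39AD_BOVIN, of the zinc importer family SLC39, stood at 95.7, 127 and 206 FPKM. It lay above Holstein by 1.10 and above Jersey by 0.69 on the log2 scale. The ratios of these models outside the rule are as deposited, without equal sums.

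Transporters that carry other symbols numbered 16 found of 27 listed, and 11 reached 10 FPKM. UCP2, the uncoupling protein of mitochondria, exceeded every member of the rule, at 4203 FPKM for Holstein, 3676 for Jersey and 7506 for Cholistani (0.84 and 1.03, and 0.16 and 0.43 with equal library sums). CTNS, which exports cystine from lysosomes, stood at 126.8, 74.2 and 36.7 FPKM (−1.76 and −0.996). The heme exporter FLVCR1 stood at 65.4, 72.9 and 31.5 FPKM (−1.03 and −1.18). All of these values come from 1 library per breed and have no error.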
